A study of Danio rerio with 8 samples.

Results

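The 9 genes described here are known targets of bone morphogenetic protein (BMP) signalling, read in primordial germ cells (PGCs) of zebrafish embryos, the cells that give rise to eggs and sperm. They are id1, id2a, id3, ved, vox, vent, bambia, szl and msx1b, taken by gene symbol from a table of 31200 symbols, and each symbol has a single entry. They were chosen as targets of the pathway with earlier results of these data known, and id1 was chosen for its lower level at bud than at shield in wild type. For id1, the values of every comparison that uses a wild type library are therefore a description with no test. All 9 reached FPKM of at least 1 in at least 2 libraries, the condition for entering the tests. FPKM divide the fragments of a gene by its length and by the size of the library, so levels can be set side by side between genes.

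The series compares wild type PGCs with PGCs of embryos homozygous for a mutation of pigu, which codes for a subunit of the GPI transamidase, and asks how this enzyme bears on germ cell migration. There are 4 groups of 2 libraries. They are wild type and pigu-/- PGCs at shield, an early gastrula stage, and wild type and pigu-/- PGCs at bud, when gastrulation ends. Embryos of every group had been injected as zygotes with GFP mRNA carrying the nanos1 3′ UTR, green cells were picked by hand, and cells of the same genotype were pooled after the somatic cells left over had been genotyped. The labels name Tuebingen and India wild-type strains and the line Tg(kop:EGFP-nanos 3’UTR), in which the germline promoter of kop drives the reporter, without assigning them to groups. They describe neither the pigu allele nor how many cells or embryos entered a pool. The replicates are called biological, and p-values measure only the spread between such pools.

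BMP ligands bind receptor kinases that phosphorylate Smad1, Smad5 and Smad9, which then enter the nucleus with Smad4 and switch on target genes. In the zebrafish gastrula the signal is strongest on the ventral side, where it favours epidermis and ventral mesoderm, and Chordin and other secreted antagonists hold it low dorsally. PGCs migrate through this field during gastrulation. The targets include transcription regulators, which carry the response in the cell, and feedback inhibitors, which limit it.

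The libraries differed in how much they detected, and this touches every value below. Genes with FPKM of at least 1 numbered 5878 to 13007, and entries of the mitochondrial genome took 17.3% to 72.2% of the total FPKM. The 4 libraries of replicate 1 held 4 to 8 of the 9 members at FPKM of at least 1, and each of the 4 libraries of replicate 2 held all 9. Mutant bud replicate 1 detected the fewest members, with 5 listed at 0. Germ plasm markers, which identify PGCs, were found in every library, with 11 to 14 of 14 at FPKM of at least 1. Summed, they came to 8133 and 25370.4 at shield and 10346 and 17261 at bud in wild type. In the mutant they came to 5765 and 36436 at shield and 18490.0 and 3797 at bud. nanos3 was the highest of them in every library, from 1518 FPKM in mutant bud replicate 2 to 20924 in mutant shield replicate 2. Whether reads of the nanos 3′ UTR of the reporter entered the value of nanos3 was not tested. The mutated gene, pigu, ranged from 2.78 to 15.0 FPKM in the wild type libraries and from 0 to 10.95 in the mutant libraries, which overlap. Of the 14 germ plasm markers, piwil1 and celf1 were listed at 0 in mutant shield replicate 1, and piwil1, buc and rgs14a in mutant bud replicate 1.

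Mutant bud replicate 2, which had the lowest germ plasm sum, had the highest sums of several somatic lists. The 10 neural ectoderm markers summed to 961 FPKM there against 38.4 to 170.4 in the other 7 libraries, and the 9 organizer and axial mesoderm markers to 690.1 against 12.5 to 169. The 9 enveloping layer markers, of the outer epithelium of the embryo, summed to 823 in that library and to 546 in mutant shield replicate 1, against 20.2 to 66.5 in the other 6. The 12 markers of ventral and epidermal ectoderm summed to 131 to 516 FPKM over the 8 libraries, and the 11 of ventral and posterior mesoderm to 121 to 980.2. Of these, 7 and 2 are themselves among the further BMP targets counted below. Endoderm markers summed to 202.5 in mutant bud replicate 2 and to 69.3 to 196 in the shield libraries, and yolk syncytial markers to 2.19 to 89.1 over all libraries. Of the early blood genes in the mesoderm list, gata1a was listed at 0 in all 8 libraries and tal1 in 7, while drl was read in 7 libraries, at up to 8.86 FPKM, and lmo2 in 6, at up to 2.999 FPKM. The part of somatic RNA in the results below was not tested, and in pooled cells a smaller number of cells of a type and less RNA per cell cannot be told apart.

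**Figure D1:**
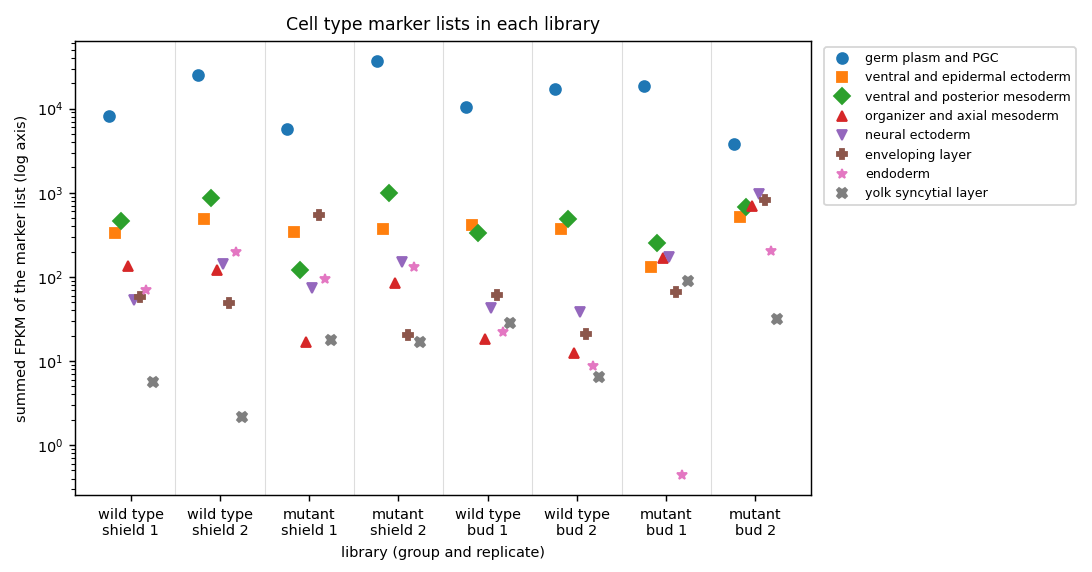
Summed FPKM of 8 lists of cell type markers in each of the 8 libraries, on a log axis, with symbols and colours for the lists. Germ plasm markers lie above every other list in all libraries and are lowest in mutant bud replicate 2 (3797), where neural ectoderm reaches 961 and the enveloping layer 823.

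Over the 8 libraries the mean FPKM placed id1 first at 1119, followed by ved at 512, bambia at 300.4 and vox at 194. The rest had lower means, with id3 at 51.8, msx1b at 34.2, szl at 22.4, id2a at 16.0 and vent at 7.68. The ranges over the libraries overlapped between all 8 pairs of neighbours in this order. id1 was the highest member in 5 libraries, which were the 4 shield libraries and mutant bud replicate 2, and ved in the other 3. At bud in wild type, the leading gene was therefore ved and not id1.

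**Figure D2:**
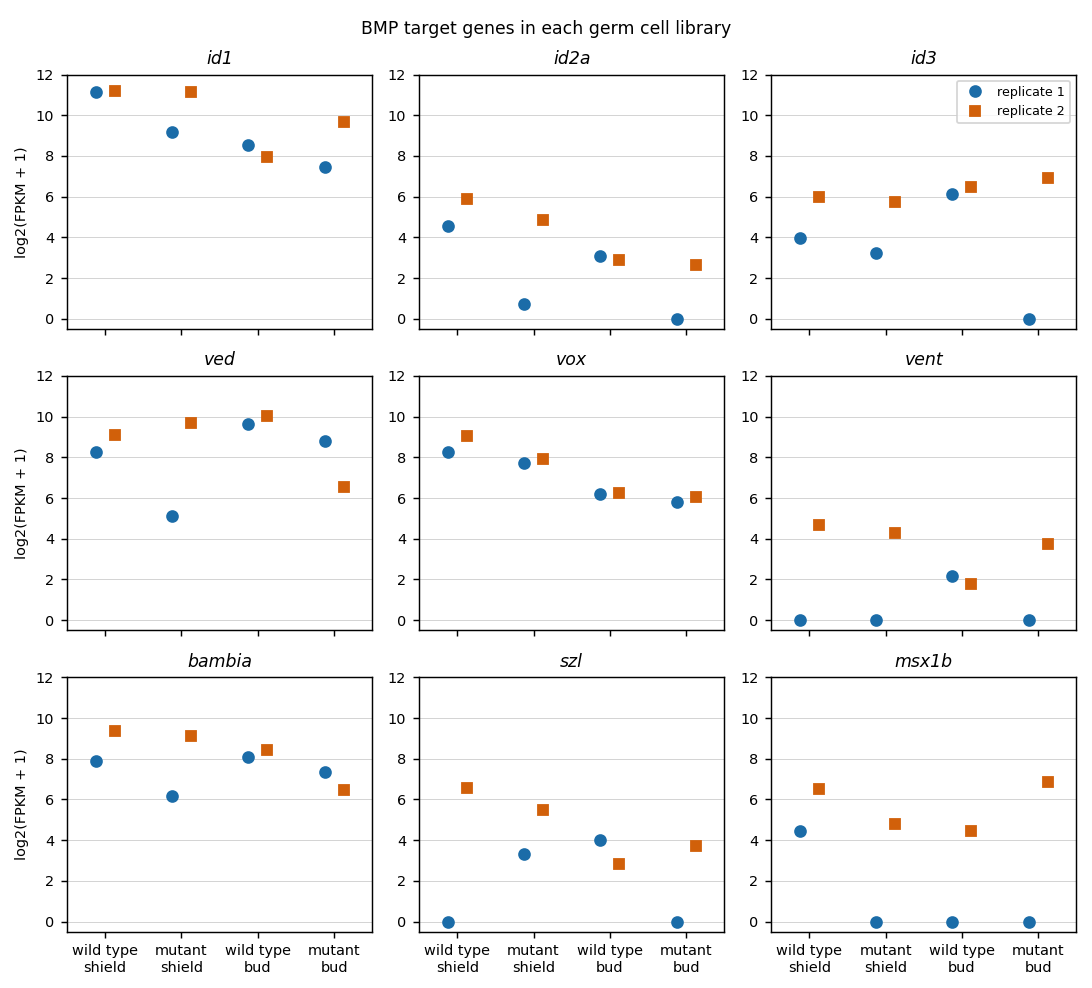
Level of each of the 9 BMP target genes as log2(FPKM + 1) in the 2 libraries of each group, with circles for replicate 1 and squares for replicate 2. id1 and vox are lower at bud than at shield in wild type, ved is higher, and vent, szl and msx1b are listed at 0 in 2 or 3 libraries each.

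The Id genes code for helix-loop-helix proteins without a DNA-binding region, which hold back the transcription factors they pair with, and are among the most direct readouts of BMP signalling. FPKM of id1 were 2243 and 2319.9 at shield and 366 and 248 at bud in wild type, and 570.2 and 2225 at shield and 172 and 804 at bud in the mutant. The wild type groups were far apart, while the mutant libraries of each stage differed from each other by more than the wild type libraries did. Means in wild type were 2282 ± 54.2 (SD, n = 2) at shield and 307 ± 83.6 at bud, and in the mutant 1398 ± 1170.3 and 488 ± 447. Only wild type shield, whose level entered the choice of id1, lay apart from all other groups. From mutant shield it did so narrowly, at 2243 in its lower library against 2225 in mutant shield replicate 2.

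The log2 difference of id1 from shield to bud was −2.92 (SE 0.79) in wild type, which is the value that chose it. In the mutant, whose libraries that choice did not use, the stage difference was −1.59 (SE 0.79, limma adjusted p = 0.747), and the groups overlapped because mutant bud replicate 2 stood above mutant shield replicate 1. With mitochondrial entries left out and each library rescaled to a total of 1000000 (parts per 1000000), id1 had 2691 and 4544 at shield and 361 and 1354 at bud in the mutant, and the groups no longer overlapped. Leaving out 1 library at a time, the stage difference in the mutant ranged from −2.70 without mutant bud replicate 2 to −0.49 without mutant bud replicate 1, and it was −0.61 without mutant shield replicate 2 and −2.58 without mutant shield replicate 1. Between genotypes id1 differed at shield by −1.02 on the log2 scale (SE 0.79). This value was −0.04 without mutant shield replicate 1. The stage effect in the mutant minus that in wild type was 1.32 (SE 1.12) for id1.

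id2a stood much lower than id1, at 22.6 and 57.7 FPKM at shield and 7.45 and 6.50 at bud in wild type, and 0.67 and 27.9 at shield and 0 and 5.25 at bud in the mutant. Wild type bud lay below wild type shield, and mutant bud below wild type bud. Its log2 difference between the stages in wild type was −2.22 (SE 1.68, limma adjusted p = 1), and that between genotypes at shield was −2.42 (SE 1.68, adjusted p = 1). Over both stages it was −2.05 (SE 1.19, adjusted p = 0.983). The genotype difference of id2a was −0.37 at shield and −1.02 over both stages when mutant shield replicate 1 was left out, and was −4.48 and −3.07 when replicate 2 of that group was. The duplicate id2b was read in wild type bud replicate 2 alone, at 8.56 FPKM.

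id3 did not follow id1. Its FPKM were 14.7 and 62.4 at shield and 68.9 and 89.0 at bud in wild type, and 8.29 and 52.7 at shield and 0 and 118 at bud in the mutant. In wild type the bud libraries stood above the shield libraries, and in mutant bud the lowest and the highest value of all 8 libraries stood side by side. The log2 difference between genotypes at bud was −2.86 (SE 1.74, limma adjusted p = 0.959), and it turned to 0.58 without mutant bud replicate 1. Over both stages it was −1.68 (SE 1.23, adjusted p = 0.984), which turned to 0.04 without the same library.

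ved, vox and vent code for homeodomain repressors that keep dorsal organizer genes off on the ventral side of the embryo and act in part redundantly. vox and vent are direct neighbours in the RefSeq annotation of the assembly GRCz12tu, with 0 annotated genes between them, and how the authors counted reads that fit related genes is not given in the sources used here. FPKM of vox were 309 and 525 at shield and 73.3 and 73.9 at bud in wild type, and 210.0 and 238 at shield and 55.3 and 64.4 at bud in the mutant. Every bud library stood below every shield library. In FPKM as deposited, vox was the 1 member of 9 whose libraries were lower at bud without overlap in both genotypes. This held for 2.57% of the 13984 genes tested.

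The log2 difference of vox between the stages was −2.44 (SE 0.78, limma adjusted p = 1) in wild type and −1.89 (SE 0.78, adjusted p = 0.731) in the mutant, neither past the test. Leaving out any 1 library kept these values between −2.82 and −2.05 and between −2.00 and −1.78. Mean FPKM of vox were 417 ± 153 (SD, n = 2) at shield and 73.6 ± 0.48 at bud in wild type, and 224 ± 20.0 and 59.8 ± 6.49 in the mutant, so its replicates lay closer together at bud than at shield. Between genotypes, vox was lower in the mutant without overlap at both stages, and its log2 difference was −0.85 (SE 0.78, adjusted p = 1) for shield and −0.57 (SE 0.55, adjusted p = 0.99) over both stages. The separation at shield was lost with mitochondrial entries left out. In parts per 1000000 without mitochondrial entries, wild type shield had 869 and 1128 of vox and mutant shield 991 and 487, and the groups overlapped. The separation at bud was lost with median-of-ratios scaling, in which each library is divided by the median ratio of its genes to their geometric mean over the libraries.

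ved showed another order. Its FPKM were 303 and 547 at shield and 794 and 1054 at bud in wild type, and 34.1 and 816 at shield and 452 and 92.7 at bud in the mutant. Wild type bud was the highest group, above wild type shield and above mutant bud without overlap, while the mutant shield libraries spanned the lowest value of all and a value above both wild type shield libraries. The log2 difference between the stages in wild type was 1.17 (SE 1.14, limma adjusted p = 1). Between genotypes the shield difference was −1.27 (SE 1.14, adjusted p = 1) and the bud difference −2.15 (SE 1.14, adjusted p = 0.959), with −1.71 (SE 0.80, adjusted p = 0.983) over both stages. The shield value turned to 1.00 without mutant shield replicate 1, and the bud value was −1.02 without mutant bud replicate 2. The lower of the mutant bud values was that of the library with the lowest germ plasm and the highest neural ectoderm sum.

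vent was the lowest member. It was listed at 0 in wild type shield replicate 1, mutant shield replicate 1 and mutant bud replicate 1, and stood at 24.4, 18.6 and 12.4 FPKM in the second library of these groups. Wild type bud held 3.55 and 2.45. The groups overlapped in each comparison, and its log2 differences lay between −0.35 and −0.11 for the genotype at either stage and the stage in either genotype, with SE of 1.98.

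bambia and szl limit the pathway that activates them. bambia codes for a membrane protein that resembles a BMP receptor without the kinase, and szl for Sizzled, a secreted protein that blocks the proteases which cut Chordin. FPKM of bambia were 237 and 662 at shield and 272 and 348 at bud in wild type, and 70.7 and 563 at shield and 162 and 88.2 at bud in the mutant. The shield groups overlapped, and at bud both mutant libraries stood below both wild type libraries. Between genotypes, bambia differed at shield by −0.98 on the log2 scale (SE 0.93, limma adjusted p = 1) and at bud by −1.36 (SE 0.93, adjusted p = 0.959), with −1.17 (SE 0.66, adjusted p = 0.983) over both stages. The shield value turned to 0.50 without mutant shield replicate 1. The duplicate bambib had 7.20 and 3.69 FPKM at shield and 25.2 and 25.4 at bud in wild type, and 0 and 12.3 at bud in the mutant.

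szl was listed at 0 in wild type shield replicate 1 and at 93.9 FPKM in replicate 2 of the same group. At bud it had 14.9 and 6.08 in wild type, and the mutant had 8.88 and 43.5 at shield and 0 and 12.2 at bud. The log2 difference between the stages in the mutant was −2.53 (SE 1.98, limma adjusted p = 0.777), with overlapping groups, and leaving out 1 library at a time gave −4.39 without mutant bud replicate 2 to −0.67 without mutant bud replicate 1. In parts per 1000000 without mitochondrial entries, szl had 41.9 and 88.8 at shield and 0 and 20.5 at bud in the mutant, and the groups did not overlap.

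msx1b codes for a homeodomain protein of the Msx family, which BMP signalling induces at the border of the neural plate and in ventral tissue. FPKM were 21.0 and 90.0 at shield and 0 and 20.7 at bud in wild type, and 0 and 26.5 at shield and 0 and 116 at bud in the mutant. Wild type bud lay below wild type shield only narrowly, at 20.7 in bud replicate 2 against 21.0 in shield replicate 1. The other wild type bud library was listed at 0. The highest value of all was that of mutant bud replicate 2. Its log2 difference between genotypes at shield was −3.09 (SE 2.20, limma adjusted p = 1), that between the stages in wild type −3.26 (SE 2.20, adjusted p = 1), and the difference of the stage effects between genotypes 4.31 (SE 3.11, adjusted p = 1.00). Each moved when single libraries were left out. The shield value was −0.70 without mutant shield replicate 1 and −5.48 without replicate 2 of that group, and the wild type stage value was −1.04 without wild type bud replicate 1 and −5.48 without replicate 2. The difference of stage effects ranged from 0.87 without mutant bud replicate 2 to 7.74 without mutant bud replicate 1. The duplicate msx1a was higher at bud than at shield in wild type, at 16.7 and 23.5 against 9.48 and 2.69 FPKM, the order opposite to that of msx1b. Higher at bud without overlap in wild type were 29.1% of all genes.

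Set against all genes, the counts of members were as follows. limma, with Benjamini-Hochberg adjustment over 13984 genes, called 0 of the 8 members other than id1 in each of the 6 comparisons, and 0 genes of the whole table (0%). At an unadjusted p under 0.05 the same 8 counted 0 for the genotype in shield, bud and combined comparisons and 0 for the interaction, against 1.44%, 4.84%, 4.27% and 1.42% of all genes. For the stage in wild type and in the mutant the same genes counted 1 each, against 3.34% and 6.64% of all genes, and both times this was vox.

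Without overlap and lower in the mutant were 2 of 9 members at shield, vox and id1, the latter with the wild type shield values that chose it, where 12.2% of all genes were. At bud these were 4 of 9, id2a, ved, vox and bambia, where 28.9% of all genes were. No member was higher without overlap at shield or at bud, against 4.26% and 8.19% of genes. In wild type, 2 of 9 members were higher at bud without overlap, id3 and ved, against 29.1% of genes, and 4 were lower, id2a, vox, msx1b and, by the choice itself, id1, against 9.89%. In the mutant, 1 was lower, vox, against 8.77%, and none was higher, against 14.7%. Over both stages vox was the 1 member lower, against 4.46%, and none was higher, against 0.422%.

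The sets of lower members changed with the scaling. Lower in the mutant at shield were id1, id2a and msx1b, and no longer vox, both without mitochondrial entries, against 12.8% of genes, and with median-of-ratios scaling, against 13.5%. At bud, the 4 members stayed the same without mitochondrial entries, against 32.4%, while with median-of-ratios scaling 2 were lower, ved and bambia, against 25.2%. Lower at bud in the mutant were id1, vox and szl without mitochondrial entries, against 14% of genes, and these and bambia with median-of-ratios scaling, against 12.9%. In wild type id2a, vox, msx1b and, by the choice itself, id1 were lower at bud without mitochondrial entries, against 13.7%. Median-of-ratios scaling added bambia to these, against 16.4%. vox stood lower at bud than at shield without overlap in both genotypes under each of these scalings. So did id1, whose order in wild type is that of the choice itself, and, with median-of-ratios scaling, bambia. For the rescaled values, the share of all genes lower in both genotypes was not computed. It was 2.57% in FPKM as deposited.

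The median log2 difference of the 9 members between genotypes was −0.98 at shield and −1.36 at bud, with −0.30 and −0.51 over all genes. Without id1, whose wild type shield level entered its choice, the medians of the other 8 were −0.91 and −1.45. Between the stages the median of the 9 was −0.36 in wild type, which includes the value that chose id1, and −1.03 in the mutant, with 0.51 and 0.25 over all genes, and without id1 it was −0.35 and −0.89. The comparisons share libraries, since each group enters both a genotype and a stage comparison. Mutant shield replicate 1 held 6 and mutant bud replicate 1 held 4 of the 9 members at FPKM of at least 1, against 9 in each replicate 2. Medians with single libraries left out were not computed. Among genotype differences larger than their SE, ved and bambia at shield and id3 at bud turned above 0 without 1 of these libraries. Those of id1, id2a, vox and msx1b at shield and of ved and bambia at bud kept their sign.

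**Figure D3:**
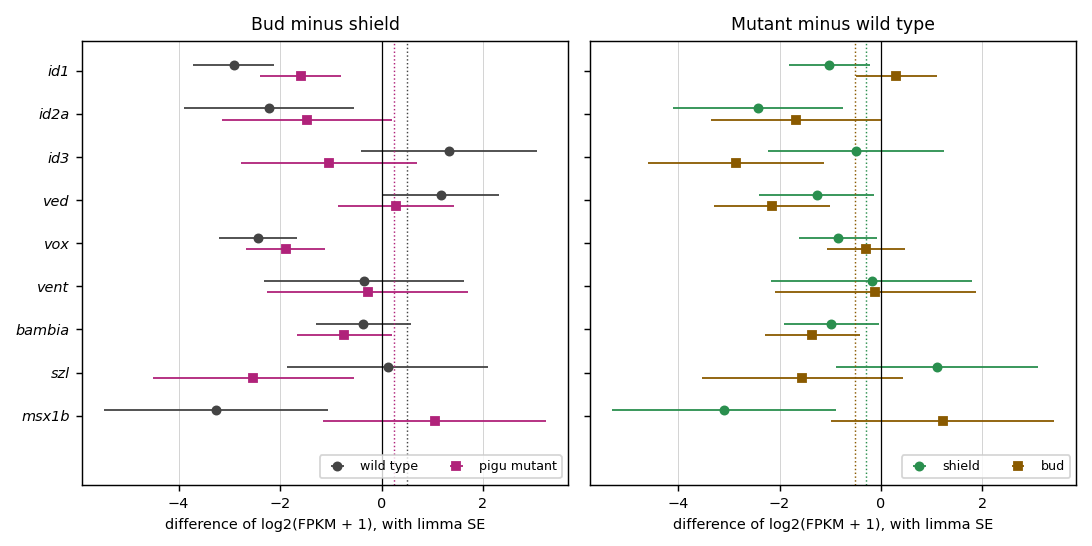
Difference of log2(FPKM + 1) for each member, bud minus shield on the left and mutant minus wild type on the right, with bars of 1 standard error from limma and dotted lines at the median of all genes in the same colour. vox lies below 0 in both stage comparisons by more than its standard error (−2.44 and −1.89), and id1 in wild type (−2.92) is the value it was chosen for.

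As a share of the FPKM outside the mitochondrial genome, the 9 genes together took 0.881% and 0.938% at shield and 0.324% and 0.371% at bud in wild type, and 0.421% and 0.815% at shield and 0.175% and 0.22% at bud in the mutant. With id1 counted, every bud library lay below every shield library. id1 made up 52.9% to 71.2% of the summed FPKM of the members in the 4 shield libraries, 22.9% and 13.4% at bud in wild type, and 20.5% and 61.2% at bud in the mutant. id1, which was chosen for its lower level at bud, thus made up more than any other member of the sum at shield. The other 8 genes together took 0.254% and 0.441% at shield and 0.25% and 0.321% at bud in wild type, and 0.155% and 0.363% at shield and 0.14% and 0.0855% at bud in the mutant. Without id1 the stages overlapped, also within wild type, where bud replicate 2 (0.321%) stood above shield replicate 1 (0.254%). Both wild type bud libraries stood above mutant shield replicate 1 as well. Within the mutant, both bud libraries stayed below both shield libraries.

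Across the 8 libraries, which share stage, genotype and detection, log2 levels of vox were nearest to those of id1 (Pearson r = 0.85, Spearman rho = 0.83), as were those of id2a (r = 0.82, rho = 0.79). Each r with id1 includes the wild type values that chose it, so likeness to id1 is a description with no test. ved and bambia were nearest to each other (r = 0.85, rho = 0.81), while ved and id1 had r of −0.04. vent and szl were nearest to each other (r = 0.86, rho = 0.91), with both listed at 0 in wild type shield replicate 1 and mutant bud replicate 1. id3 was nearest to vent (r = 0.73, rho = 0.59) and msx1b to id2a (r = 0.71, rho = 0.54). id1 was also compared with 8230 other genes with a mean of at least 5 FPKM, and loci without a gene name were then left out. The 5 most like id1 among the rest were gadd45ba (r = 0.94, rho = 0.93), znf1004 (r = 0.94, rho = 0.86), adora4a (r = 0.93, rho = 0.88), galnt18a (r = 0.92, rho = 0.93) and stx11a (r = 0.91, rho = 0.86). In mutant bud replicate 1, where id1 was lowest at 172 FPKM, gadd45ba, adora4a, galnt18a and stx11a were listed at 0 and znf1004 at 2.13e-24. That library, with few detected genes, thus enters each r. Like id1, gadd45ba was high in mutant bud replicate 2, at 10.5 FPKM against 1.15 and 0.80 in wild type bud. There galnt18a had 4.28 against 2.86 and 2.18, and adora4a 1.79 against 1.30 and 1.75. znf1004 (4.36 against 6.19 and 0.56) and stx11a (5.50 against 2.79 and 6.09) lay between their wild type bud values.

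The rest of the pathway was read in the same libraries, from lists of ligands, modulators, receptors, Smads and further targets. limma called 0 genes of each list in each of the 6 comparisons, and at an unadjusted p under 0.05 each list counted between 0 and 3 genes per comparison. The highest counts were for genotype at bud, with 3 of 15 Smads and regulators and 3 of 17 further targets, against 4.84% of all genes. For genotype over both stages the further targets again counted 3 of 17, against 4.27%. smad6a and smad7, which are in both lists, entered each of these counts. The other gene was smad9 among the Smads and foxi1 among the further targets. smad9, named here after its values were seen, had 37.8 and 72.3 FPKM at bud in wild type and 0.36 and 11.6 in the mutant (log2 difference −3.69, SE 1.47, limma adjusted p = 0.959). Of 10 ligand genes, 6 were tested. bmp4, the most abundant, stood at 4.47 and 28.1 FPKM at shield and 5.32 and 22.0 at bud in wild type, and 0.37 and 75.9 at shield and 85.6 and 24.6 at bud in the mutant. bmp4 was thus higher in both mutant bud libraries than in both wild type bud libraries (log2 difference 1.97, SE 1.71, limma adjusted p = 0.959). The nearest values were 24.6 in mutant bud replicate 2 and 22.0 in wild type bud replicate 2, and 8.19% of all genes were higher there without overlap. ved and bambia were lower there without overlap, as were 28.9% of all genes. bmp7a, whose product pairs with Bmp2b in the gastrula, had 15.0 and 35.0 at shield in wild type, and bmp2b had 0.33 and 16.2.

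Of the 19 antagonist and modulator genes in the table, 11 were tested. chrd, the gene of Chordin, had 30.3 and 38.0 FPKM at shield and 4.83 and 3.14 at bud in wild type, and 0 and 147 at bud in the mutant. Its value in mutant bud replicate 2 was the highest of the 8 libraries, as were those of the secreted Wnt modulator sfrp1a (103) and of fstl1b (51.3). Among 11 receptor genes, of which 9 were tested, the type I receptor acvr1l stood at 9.54 and 47.7 at shield and 13.5 and 21.7 at bud in wild type, and 0 and 37.6 at shield and 17.3 and 43.4 at bud in the mutant. acvr2ba and bmpr1ba, of the type II and type I receptors, were listed at 0 in 3 libraries and 1 library. Receptor medians lay near those of all genes, at −0.19 against −0.30 for genotype at shield and −0.28 against −0.51 at bud.

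All 15 genes of the Smads and their regulators were tested. smad5, the most abundant, was read in every library, at 47.2 and 138 FPKM at shield and 37.5 and 50.7 at bud in wild type, and 24.1 and 144 at shield and 105 and 70.6 at bud in the mutant. smad7, an inhibitory Smad that BMP signalling induces, stood at 53.7 and 99.1 at shield and 26.4 and 30.1 at bud in wild type, and 10.6 and 88.7 at shield and 0 and 8.86 at bud in the mutant. Both mutant bud libraries lay below all others for smad7, with a log2 difference of −3.22 (SE 1.39, limma adjusted p = 0.959) against wild type at bud and −3.36 (SE 1.39, adjusted p = 0.731) against mutant shield. smad6a, another inhibitory Smad gene, took the opposite order at bud, at 0 and 0.84 FPKM in wild type and 25.6 and 6.32 in the mutant (log2 difference 3.36, SE 1.47, limma adjusted p = 0.959), and like smad7 did not pass the test. Of all genes, 28.9% were lower and 8.19% higher without overlap in the mutant at bud than in wild type. Lower without overlap in mutant bud than in mutant shield were 8.77%. ppm1aa, of a Smad phosphatase family, had 74.3 and 127 at bud in wild type and 8.89 and 103 in the mutant.

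Of 22 further target genes in the table, which include smad6a and smad7, 17 were tested. Their log2 difference between genotypes was below 0 for 12 at shield and for 14 at bud, where 63.5% and 66.5% of all genes lay below 0. The medians were −0.68 and −1.22 against −0.30 and −0.51 over all genes. Of the 22 genes, 16 were listed at 0 in mutant shield replicate 1 and 15 in mutant bud replicate 1, against 7 and 4 in replicate 2 of these groups. Summed, the 22 came to 96.9 and 1004 FPKM in mutant shield. These counts and medians were not computed with single libraries left out. Between the stages in wild type, 12 of the 17 lay above 0, as did 68.5% of all genes, with a median of 0.99 against 0.51. eve1, a ventral homeobox gene, took the order of id1 and vox in wild type, at 184 and 212 FPKM at shield and 50.4 and 27.9 at bud (log2 difference −2.37, SE 1.05, limma adjusted p = 1). Lower at bud without overlap in wild type were 9.89% of all genes. cdx4, a posterior homeobox gene, took the order of ved in wild type, at 51.2 and 75.1 at shield and 188 and 338 at bud. There 29.1% of all genes were higher at bud without overlap. In the mutant cdx4 had 0 and 166 at shield and 68.8 and 336 at bud, where ved had 452 and 92.7. klf2b stood at 44.3 and 306 at shield and 57.6 and 151 at bud in wild type. foxi1, a regulator of ventral ectoderm named here after its values were seen, had 56.4 and 66.2 at bud in wild type and 0 and 1.20 in the mutant (log2 difference −5.39, SE 1.74, limma adjusted p = 0.959). In that comparison 28.9% of all genes were lower in the mutant without overlap.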

How the data were processed

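RNA of hand-picked PGC pools was sequenced by SMART-seq2 with paired ends, per the labels' protocols, where another field speaks of oocytes. The authors deposited FPKM, 1 column per library; Trim Galore, STAR 2.5.3a, Cufflinks 2.2.1 and danRer11 are named, per the submitters' processing notes. The annotation is not given in the sources used here. FPKM hold no read counts, so depth is unknown and no counting interval is given. An FPKM of 0 may be a failed estimate and is called listed at 0.

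For 545 of 31200 symbols with several entries the highest mean was kept, and 2 entries with missing values were left out. log2(FPKM + 1) entered, for the 13984 genes that reached FPKM of 1 in 2 or more of 8 libraries, a limma-trend fit of 4 group means (limma 3.58.1, R 4.3.3, two-sided, Benjamini-Hochberg adjusted p under 0.05, 4 residual degrees of freedom). Because limma shares the spread across genes, its p-values rest on 15.4 degrees of freedom in total. Differences on this scale understate those of low genes. Log2 differences of single members are given where they exceed their SE, and for vent as a range. Plots used Python 3.11.15 and matplotlib 3.10.9.

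Members, lists and comparisons were chosen with earlier results of these data known. Genes named beyond the members are the 5 most like id1 with unnamed loci left out, up to 3 of each pathway list with the highest mean FPKM, and duplicates of members. Others, among them pigu, single marker genes, smad6a, smad9 and foxi1, were named after their values were seen. RefSeq symbols matched all 9 members. Their sequences are not shown.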

Additional observations from a re-analysis of the deposited data

How the results depend on the processing

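Values were recomputed under 22 other settings, which varied the filter, scaling, pseudocount (0.1 or 5), moderation, weights, merged entries, libraries and, chosen after seeing the data, the removal of mitochondrial entries. The filter at FPKM of at least 1 in all libraries left id1, ved, vox and bambia. The fit of only the libraries compared was run for the 4 comparisons within a stage or a genotype. Members called are counted here without id1. The count of members called was 0 in each comparison and setting, except that 1 member was called for genotype at bud, id3 at −6.31, when mutant shield replicate 1 and mutant bud replicate 2 were both left out. Each mutant group then had a single library, assumed to vary like the others, and 237 of 13325 genes were called. The mutant bud library left was replicate 1, in which id3 was listed at 0. Under that setting ved at shield turned to 1.00 and bambia to 0.50, and the difference of stage effects turned to −0.77 for id1 and −1.52 for msx1b. The cause was not tested. Of 512 values of 24 single differences, 500 counted as kept. For id1 in comparisons with a wild type library this means the same direction and a move under 1 SE. Elsewhere it means the same direction and side of the threshold. No difference passed the threshold in the main fit, so keeping its side says little of the size. That of id2a at shield, counted as kept, ranged from −4.48 to −0.37. Of the rest, 8 reversed, 3, all of id1, moved by more than their SE, and the last was id3 at −6.31 as above. Leaving out 1 library at a time gave −3.54 to 1.00 for ved and −2.47 to 0.50 for bambia at shield, −6.31 to 0.58 for id3 at bud and −3.40 to 0.042 for id3 over both stages. Among differences that kept their sign, it gave −3.29 to −1.02 for ved at bud, −2.85 to −0.58 for ved and −1.91 to −0.43 for bambia over both stages, and −1.23 to −0.46 for vox at shield.

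The replicate numbers are not stated to pair libraries. Differences between replicates 1 and 2 correlated across genes at −0.01 to 0.33 between groups. With the replicate block, the count of called members other than id1 was 0 in each comparison. SMART-seq2 pools with few detected genes limit what can be read of vent, szl, msx1b and id2a.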

Other observations

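Ranked within a library among the 13984 tested genes, id1 lay at percentiles 99.9 and 99.9 at shield and 98.4 and 97.6 at bud in wild type, and 99.7 and 99.9 at shield and 96.1 and 99.2 at bud in the mutant. vox lay at 98.5 and 99.3 at shield and 89.8 and 89.2 at bud in wild type, and 98.7 and 98.0 at shield and 85.4 and 89.0 at bud in the mutant. Ranks within a library do not change when it is rescaled. On this scale too every bud library stood below every shield library for vox, and mutant shield replicate 1 lay within the wild type values. The same order of bud and shield held for id1, in wild type by the choice itself. The share of all genes with that order was not computed on this scale. At bud, ved lay at 99.5 and 99.8 in wild type and at 99.1 and 92.3 in the mutant.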
